A study of Mus musculus with 75 samples.

Results

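The genes described here are 44 members of fatty acid oxidation and of the peroxisome, taken by symbol from the deposited raw count table. All 44 were found among the 32245 genes of the table, and all 44 passed the filter on low counts in every arm of the study. By textbook location, 22 members are mitochondrial, 17 are peroxisomal and 5 act in both compartments, and these groups are reported separately.

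Whole kidneys were profiled by bulk RNA-Seq 3 days after unilateral ureter obstruction (UUO), with the contralateral (CL) kidney as the reference. The 75 libraries fall into 12 groups in 3 arms. In the ABTAA arm, mice received ABTAA, an antibody that binds ANGPT2 and activates the endothelial receptor TIE2, or IgG as control (8 CL and 8 UUO libraries under IgG, 7 and 7 under ABTAA). These mice were C57BL6/J or wild types from the study's breedings, the labels do not say which, and the control agent was a human IgG Fc at the same dose. In the *Veptp* arm, VeptpKO (VeKO) mice had lost *Veptp*, the gene of the TIE2 phosphatase VEPTP, in endothelial cells through a tamoxifen-inducible *Cdh5*-CreERT2. Their VeptpWT (VeWT) controls carried 1 floxed allele and the same Cre without induction (7 VeptpWT CL, 8 VeptpWT UUO, 6 VeptpKO CL and 8 VeptpKO UUO libraries). In the *Pdgfb* arm, PdgfbKO (PbKO) mice carried an induced CreERT2 that is active throughout the body, so that the loss was not limited to endothelium, and PdgfbWT (PbWT) controls were Cre-negative littermates with floxed alleles (4 libraries in each of the 4 groups). All mice were adults, of both sexes, and the engineered lines were on a mixed background, and 2 sham-operated kidneys stand unmarked among the PdgfbWT CL libraries.

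Fatty acids are shortened by β-oxidation, a cycle of dehydrogenation, hydration, a second dehydrogenation and thiolytic cleavage that releases acetyl-CoA. Mitochondria take up long-chain fatty acids through the carnitine shuttle and pass the electrons to the respiratory chain. Peroxisomes shorten very long-chain and branched fatty acids, make hydrogen peroxide and break it down with catalase. The proximal tubule of the kidney is rich in both organelles and draws most of its energy from fatty acids, and transcription of many of these enzymes is driven by the nuclear receptor PPARα with its coactivator PGC-1α.

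Library totals ran from 172827 to 2341800 counts of unique molecules, with a median of 757897. The median raw count of a member over the libraries was lowest for *Pex14*, at 16, and 1 library held 0 counts of 1 member, *Acsm3*. Library names are a letter and a number, written together in 45 libraries (plain names) and joined by a low line character in 30 (joined names). The labels do not say what this form stands for. Plain and joined names stand side by side in all 8 groups of the ABTAA and *Veptp* arms. Only plain names occur among the 16 libraries of the *Pdgfb* arm. In 24 of the 75 libraries both *Xist*, which is expressed from the inactive X chromosome of females, and Y-linked genes reached 10 counts. Whether such a library holds RNA of more than 1 animal was not tested. In the *Veptp* arm, 4 of the 8 replicate numbers shared by a CL and a UUO library carried opposite genotypes in the labels. The targeted genes were not called in any comparison by genotype, and whether the counted reads fall in the deleted parts is not given in the sources used here. *Ptprb*, which encodes VEPTP, differed by -0.69 on the log2 scale between the libraries labelled VeptpKO and VeptpWT in UUO and by -0.63 in CL, with overlapping ranges and an adjusted p of 1.00 in edgeR in both. *Pdgfb* was -0.47 in the UUO libraries labelled PdgfbKO against those labelled PdgfbWT (adjusted p = 0.125, 34.0 to 41.4 against 44.1 to 58.9 CPM) and 0.78 in CL (adjusted p = 1.00). Both genotypes are therefore named below as the libraries are labelled.

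The members lie on many chromosomes, and the promoters of 4 of those with the fullest accounts below are shown for a nuclear receptor half-site. Of the 11 members with full values and a matched promoter, *Acadm*, *Cat* and *Phyh* hold it and are shown, with *Ehhadh* as 1 of the 8 that do not. Each runs from 250 bases before to 50 bases after the start of the gene, 5′ to 3′ on the strand of the gene, from RefSeq on GRCm38.p6. Capitals mark the nuclear receptor half-site AGGTCA, or its reverse complement. *Acadm* (promoter at chr3:153944594-153944893, minus strand) encodes medium-chain acyl-CoA dehydrogenase and holds the half-site at position -249. *Cat* (chr2:103485104-103485403, minus strand) encodes catalase and holds it at -204. *Phyh* (chr2:4918746-4919045, plus strand) encodes phytanoyl-CoA hydroxylase and holds it at 36. *Ehhadh* (chr16:21787785-21788084, minus strand) encodes the peroxisomal bifunctional enzyme, and these letters are not in this window.
Acadm: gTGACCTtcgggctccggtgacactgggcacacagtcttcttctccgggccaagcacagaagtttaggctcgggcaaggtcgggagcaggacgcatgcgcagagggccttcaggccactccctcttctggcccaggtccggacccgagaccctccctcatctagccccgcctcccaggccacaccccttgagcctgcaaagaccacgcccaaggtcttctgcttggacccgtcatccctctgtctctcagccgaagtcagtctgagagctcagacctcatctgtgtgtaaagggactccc
Cat: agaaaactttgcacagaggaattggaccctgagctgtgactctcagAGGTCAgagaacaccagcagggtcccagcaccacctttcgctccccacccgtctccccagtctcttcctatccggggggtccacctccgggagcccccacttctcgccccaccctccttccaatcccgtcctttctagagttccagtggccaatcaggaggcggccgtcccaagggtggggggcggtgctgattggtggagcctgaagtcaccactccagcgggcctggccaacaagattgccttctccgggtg
Phyh: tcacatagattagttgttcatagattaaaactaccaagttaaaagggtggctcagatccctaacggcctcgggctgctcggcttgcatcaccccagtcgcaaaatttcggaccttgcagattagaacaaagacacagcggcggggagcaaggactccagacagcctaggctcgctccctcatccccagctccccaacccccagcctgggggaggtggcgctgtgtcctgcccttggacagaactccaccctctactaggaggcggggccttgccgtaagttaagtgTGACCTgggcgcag
Ehhadh: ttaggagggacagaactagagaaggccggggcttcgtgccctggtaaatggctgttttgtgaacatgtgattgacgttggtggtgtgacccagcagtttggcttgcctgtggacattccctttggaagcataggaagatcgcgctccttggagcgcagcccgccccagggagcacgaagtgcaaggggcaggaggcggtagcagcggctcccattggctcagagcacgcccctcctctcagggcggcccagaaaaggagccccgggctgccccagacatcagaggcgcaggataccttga

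Of the 44 members, 36 matched a promoter in the RefSeq table. The half-site, searched on both strands, stood in 7 of the 36 (19.4%), counting a member once where any of its promoters held it, against 18.1% of all 26742 genes counted in the same way and 16.2% of all 32544 promoters of the same length. A direct repeat of half-sites with 1 base between them, AGGNCANAGGNCA, the form known to bind PPARα with its partner RXR, was in 0 of 36 and in 0.456% of all genes (0.384% of promoters). The GC box GGGCGG stood in 26 of 36 (72.2%) against 38.5% of all genes (35.9% of promoters), and CCAAT in 15 of 36 (41.7%) against 41.0% (37.4% of promoters). These shares are descriptions of the letters in a short window and were given no test.

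The first question was how obstruction changed these genes in mice given the control IgG Fc. After 3 days of UUO, 41 of the 44 members were lower in the UUO kidney than in the CL kidney and 0 were higher (edgeR quasi-likelihood test, Benjamini-Hochberg adjusted p under 0.05 over all genes tested). The median log2 fold change of the members was -0.97, and 18.2% of all 9579 genes tested were lower in the same comparison. Lower members numbered 21 of 22 in mitochondria (median -1.01), 15 of 17 in peroxisomes (median -0.86) and 5 of 5 in both compartments (median -1.11). The 3 members that missed the threshold were *Acsm3* (-1.41), *Crot* (-0.63), the peroxisomal carnitine octanoyltransferase, and *Pex14* (-0.44). The lowest and highest library did not overlap between CL and UUO for 20 members, as for 4.98% of all genes tested in the lower direction. In bulk tissue, fewer cells of a type and less RNA per cell cannot be told apart.

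The lowest adjusted p among mitochondrial members belonged to *Bdh1*, 3-hydroxybutyrate dehydrogenase, an enzyme of ketone body use (chr16:31422280-31458901, plus strand, GRCm38, positions of the whole gene). Its lowest, median and highest library were 132, 208 and 258 CPM (the count relative to the TMM-scaled library total) in IgG CL and 42.2, 58.1 and 85.7 CPM in IgG UUO. All 8 UUO libraries lay below all 8 CL libraries, with a difference of -1.69 on the log2 scale (SE 0.19, adjusted p = 1.35e-08), or 31.0% of the CL level. *Hadh*, the mitochondrial dehydrogenase of medium- and short-chain hydroxyacyl-CoA (chr3:131233419-131272101, minus strand), had 332, 402 and 499 CPM in CL and 108, 167 and 263 CPM in UUO. Its UUO libraries held 42.9% of the CL level (log2 -1.22, SE 0.15, adjusted p = 5.12e-08), again without overlap. *Acadm* (chr3:153922357-153944632, minus strand) had 1104, 1447 and 1861 CPM in CL and 337, 493 and 763 CPM in UUO. The UUO level was 34.5% of the CL level (log2 -1.54, SE 0.18, adjusted p = 5.50e-08), with every UUO library below every CL library.

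Peroxisomal members showed the same direction. *Acaa1b*, a peroxisomal thiolase (chr9:119148023-119157093, minus strand), had 432, 562 and 777 CPM in CL and 108, 147 and 340.2 CPM in UUO. It fell to 31.1% of the CL level (log2 -1.68, SE 0.21, adjusted p = 9.29e-08), and its ranges did not overlap. The *Acaa1b* transcripts share 30.5% of their 50-base stretches with other genes, most with its paralog *Acaa1a*, which makes its level uncertain. *Phyh*, which starts the α-oxidation of phytanic acid (chr2:4919019-4938730, plus strand), had 322, 386 and 613 CPM in CL and 159.9, 196 and 224 CPM in UUO. Its fold change was -1.15 (SE 0.15, adjusted p = 1.57e-07), and its ranges did not overlap. *Ehhadh* (chr16:21761287-21787807, minus strand) had 486, 779 and 1038 CPM in CL and 152, 272 and 354 CPM in UUO. Its libraries did not overlap between kidneys, at -1.48 (SE 0.20, adjusted p = 4.70e-07). Among the members of both compartments, the lowest adjusted p belonged to *Crat*, carnitine acetyltransferase (chr2:30400471-30415813, minus strand), with 88.9, 108 and 129.8 CPM in CL and 31.7, 48.4 and 58.1 CPM in UUO. *Crat* fell by 1.15 on the log2 scale (SE 0.15, adjusted p = 2.18e-07), and its ranges did not overlap.

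By role, every step of the mitochondrial pathway held lower members in IgG UUO kidneys. In the carnitine shuttle, *Cpt1a*, the malonyl-CoA-sensitive entry enzyme, had a log2 fold change of -0.75, and *Cpt2*, its partner on the inner membrane, -0.78. The acyl-CoA dehydrogenases spanned chain lengths, from -0.44 for the long-chain enzyme *Acadl* and -0.90 for the very long-chain enzyme *Acadvl* to -1.27 for the short-chain enzyme *Acads* and -0.98 for *Acad10*. The trifunctional protein subunits *Hadha* (-0.67) and *Hadhb* (-1.04) fell, as did the hydratase *Echs1* (-0.86). Thiolysis and ketone metabolism were represented by *Acaa2* (-1.61) and *Acat1* (-1.50), and the enzymes that prepare unsaturated chains by *Eci1* (-0.71) and *Decr1* (-0.79). Activation of fatty acids to their CoA esters was represented by *Acsl1* (-1.29, long chains) and *Acsm2* (-1.49, medium chains). Electron transfer flavoprotein, which carries the electrons of the dehydrogenases onward, fell in its subunits *Etfa* (-1.06) and *Etfb* (-0.98) and in its oxidoreductase *Etfdh* (-0.86).

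In the peroxisome, 12 of the 13 enzymes and transporters and 3 of the 4 peroxins were lower. *Cat* fell by 1.09, *Acox3*, an acyl-CoA oxidase of branched chains, by 1.20, and the sterol carrier and thiolase gene *Scp2* by 0.94. *Acaa1a*, the other thiolase, was lower by 0.50 and *Hsd17b4*, the D-bifunctional protein, by 0.47. *Decr2* (-0.86), the peroxisomal dienoyl-CoA reductase, the fatty acid transporter *Abcd3* (-0.94), the CoA hydrolase *Nudt19* (-1.03) and the epoxide hydrolase *Ephx2* (-0.80) were lower as well. Of the 4 peroxins, the division factor *Pex11a* (-0.59), the membrane protein chaperone *Pex19* (-0.74) and the import receptor *Pex5* (-0.41) passed the test, and *Pex14*, its docking protein, did not. In both compartments, *Amacr* (-1.45), the racemase of branched chains, the dehydrogenase *Acad11* (-1.11) and the isomerases *Ech1* (-0.97) and *Eci2* (-0.62) fell.

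**Figure D1:**
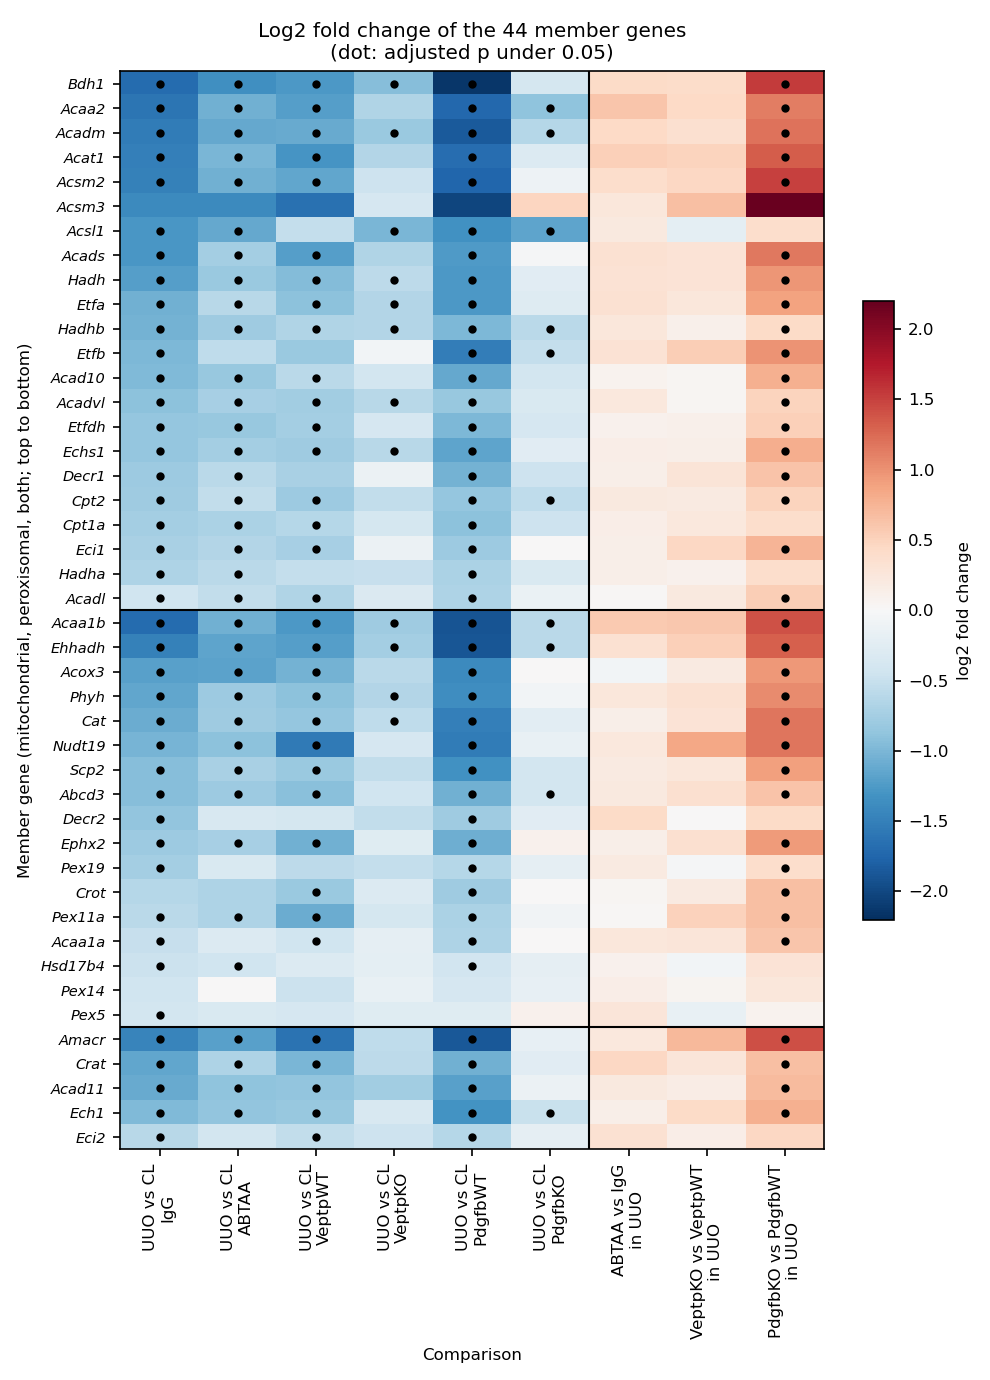
Log2 fold change of each of the 44 members (rows, grouped by compartment) in the 6 comparisons of UUO with CL and the 3 comparisons of treated or deleted with control mice in UUO (columns), blue for lower and red for higher, with dots at an adjusted p under 0.05. Lower values fill the columns of IgG and PdgfbWT mice, with 41 members called in each, and fewer dots stand in VeptpKO (12) and PdgfbKO (10); the last column, PdgfbKO against PdgfbWT, holds 35 dots.

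The same comparison was made within each of the other 5 conditions, and 0 members were called higher in any of the 6. In ABTAA-treated mice 35 members were lower (median -0.75; 12.5% of all genes tested), of which 20 were mitochondrial, 11 peroxisomal and 4 of both compartments. In VeptpWT mice 34 were lower (median -0.83; 8.38% of all genes), 17, 12 and 5 by compartment, and in PdgfbWT mice 41 were lower (median -1.14; 19.4%), 21, 15 and 5 by compartment. In VeptpKO mice 12 were lower (median -0.53; 3.47%), made up of 8 mitochondrial and 4 peroxisomal members. With the replicate number of the joined names as a block, the count was 28 (10.3% of all genes). Plain names are outside the block, and 4 of its 8 pairs carry opposite genotypes. In this arm the block also carries the form of the name, so pairing and form cannot be told apart in that count. Without the libraries whose numbers carry opposite genotypes the VeptpKO count was 0 (0.127% of all genes), and the VeptpWT count was 16 (2.71%). In PdgfbKO mice 10 were lower (median -0.25; 2.42%), 6 mitochondrial, 3 peroxisomal and 1 of both compartments, with 7 members above 0. This count was 0 with all 12 groups in 1 edgeR fit (0.0491% of all genes; median -0.24), and 5 or 6 in thinned counts, with the compared groups alone or with the exact test without TMM. Without the libraries that held both *Xist* and Y-linked genes, 36 members were lower in IgG (12% of all genes tested), 30 in ABTAA (7.71%), 25 in VeptpWT (5.76%) and 12 in VeptpKO mice (3.59%). Single libraries decided part of the smaller counts. A library given as a replicate of a group, here and below, is numbered in sample order within the group and not by its name. The VeptpKO count was 7 without CL replicate 3 or 6, 6 without UUO replicate 5 or 6 and 5 without UUO replicate 7. The PdgfbKO count was 6 without CL replicate 1, 5 without CL replicate 2 or 3 or without UUO replicate 2, and 3 without UUO replicate 4. UUO ranges lay wholly below CL ranges for 40 members in PdgfbWT (17.3% of all genes tested), 15 in VeptpWT (2.3%), 14 in ABTAA (2.67%), 9 in PdgfbKO (5.13%) and 0 in VeptpKO mice (0.512%).

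*Bdh1* illustrated the spread of the responses across conditions. Its UUO response was -1.35 in ABTAA-treated mice, -1.26 in VeptpWT, -0.94 in VeptpKO and -2.14 in PdgfbWT mice, each past the threshold, and -0.38 in PdgfbKO mice (adjusted p = 0.213). In plain and joined names the response was -0.80 and -2.05 under ABTAA, -1.17 and -1.19 in VeptpWT and -0.25 and -1.18 in VeptpKO mice. The VeptpKO call was lost in plain names alone (adjusted p = 0.918 in edgeR). In the ABTAA groups its lowest, median and highest library were 147, 192 and 286 CPM in CL and 60.7, 69.9 and 140.0 CPM in UUO. In the *Veptp* arm they were 114, 233 and 273 CPM in VeptpWT CL, 43.6, 88.0 and 147 in VeptpWT UUO, 124, 261 and 298 in VeptpKO CL and 85.6, 122 and 151 in VeptpKO UUO. The ranges of CL and UUO did not overlap under ABTAA, overlapped in VeptpWT and overlapped in VeptpKO mice. *Acadm*, *Acaa1b* and *Ehhadh* were called lower with UUO in all 6 conditions in the fits by arm. None of the 3 was called in PdgfbKO mice with all 12 groups in 1 fit or without UUO replicate 4. In VeptpKO mice none was called in plain names alone, without the libraries numbered 3, 4, 7 and 8, with the compared groups alone or with the exact test. The *Acadm* call in VeptpKO mice was also lost on leaving out single libraries, such as UUO replicate 6 (adjusted p = 0.0925 in edgeR). That of *Acaa1b* in PdgfbKO mice was lost without CL replicate 1 or 3 or UUO replicate 2. For *Ehhadh*, libraries ran 473, 655 and 1101 CPM in ABTAA CL and 216, 359 and 456 in ABTAA UUO (-1.17, adjusted p = 7.68e-05). In VeptpWT mice it had 584, 786 and 1023 CPM in CL and 196, 334 and 514 in UUO (-1.22, adjusted p = 6.40e-05). In VeptpKO mice it had 618, 795 and 1025 CPM in CL and 249, 501 and 653 in UUO (-0.75, adjusted p = 0.0210). The ranges of the VeptpKO libraries overlapped for this gene as for every other member.

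Expressed as the mean of log2(CPM + 1) over the 22 mitochondrial members, IgG libraries stood at 8.45 ± 0.22 (SD, n = 8) in CL and 7.43 ± 0.21 (SD, n = 8) in UUO. PdgfbWT libraries stood at 8.43 ± 0.16 (SD, n = 4) and 7.19 ± 0.06 (SD, n = 4), and PdgfbKO libraries at 8.37 ± 0.25 and 8.12 ± 0.12 (SD, n = 4 each). For the 17 peroxisomal members the means were 7.82 ± 0.25 and 6.94 ± 0.15 in IgG CL and UUO, 7.82 ± 0.17 and 6.80 ± 0.05 in PdgfbWT CL and UUO, and 7.72 ± 0.19 and 7.56 ± 0.19 in PdgfbKO CL and UUO. The VeptpKO UUO libraries were the most scattered, at 7.93 ± 0.38 (SD, n = 8) for the mitochondrial members.

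**Figure D2:**
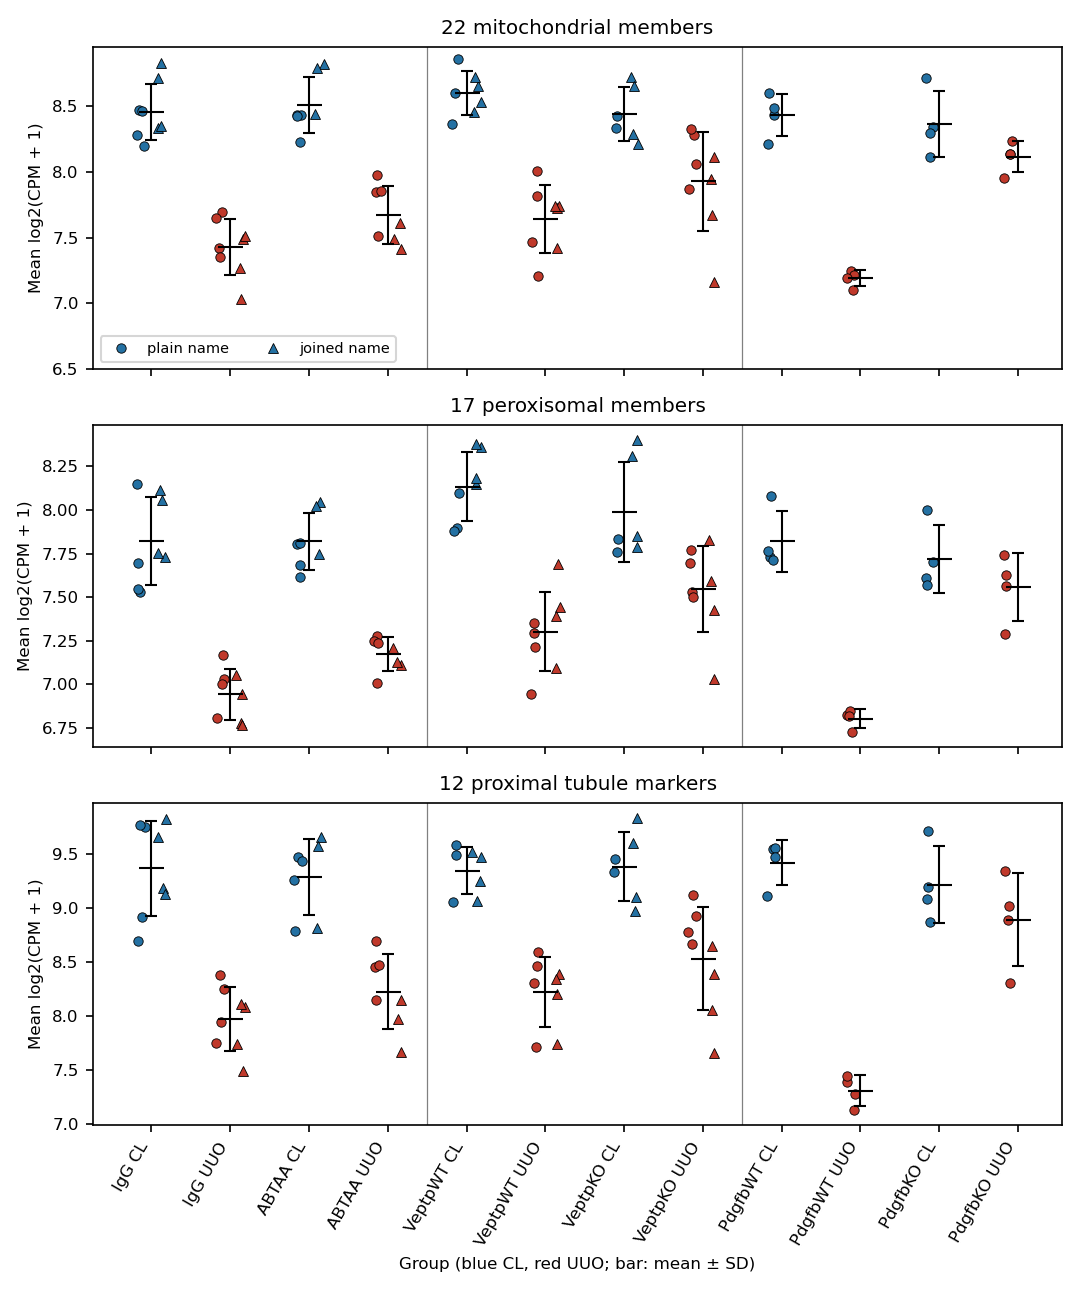
Mean log2(CPM + 1) per library over the 22 mitochondrial members, the 17 peroxisomal members and 12 proximal tubule markers, by group; circles are libraries of plain name, triangles those of joined name, and bars give mean ± SD. The 4 PdgfbWT UUO libraries lie below all 4 PdgfbKO UUO libraries in the panels of both compartments and of the markers.

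Markers of the cell types moved with the members. Of 12 proximal tubule markers, 11 were lower with UUO in IgG mice (median -1.37), 9 in ABTAA-treated, 6 in VeptpWT, 5 in VeptpKO, 12 in PdgfbWT (median -2.06) and 6 in PdgfbKO mice (median -0.73). Their summed level was 14299 to 39064 CPM in IgG CL and 5698 to 11292 CPM in IgG UUO libraries, without overlap. Of 10 markers of the loop, distal tubule and collecting duct, 8 were lower in IgG mice, while all 7 injured tubule markers, 5 of 5 fibroblast and 5 of 5 macrophage markers were higher. Of 5 endothelial markers 2 were higher. Of 6 adipocyte markers 1 was tested, *Cfd*, and it was higher in IgG UUO (3.15) and lower in PdgfbWT UUO kidneys (-3.98); their summed level was 0 to 63.6 CPM in IgG CL and 0 to 414.8 CPM in IgG UUO libraries. The part of these cell types in the fall of the members was not tested.

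Since the form of the name split the groups, the UUO response was also taken within each form. In libraries of plain name, 33 members were lower in IgG (median -0.76; 12.6% of all genes tested), 13 in ABTAA (-0.53; 4.37%), 23 in VeptpWT (-0.74; 6.7%) and 0 in VeptpKO mice (-0.20; 0%). In libraries of joined name the counts were 41 in IgG (-1.09; 15.4%), 37 in ABTAA (-1.02; 13%), 36 in VeptpWT (-0.80; 11.9%) and 28 in VeptpKO mice (-0.69; 10.6%). The difference of the response between the forms was called for 0 of 44 members in the ABTAA arm by edgeR (0% of all genes), with 20 at an unadjusted p under 0.05 and a median of -0.42. In the *Veptp* arm it was called for 0 of 44 (0.351% of all genes), with 6 at an unadjusted p under 0.05 and a median of -0.26. *Acads* had the lowest p in the ABTAA arm, where the response was lower by 0.78 on the log2 scale in libraries of joined name (SE 0.19, adjusted p = 0.0933). *Acadm* had 1296 to 1683 CPM in VeptpKO CL and 865 to 1409 in VeptpKO UUO libraries of plain name, against 1404 to 1529 and 409 to 580.0 in those of joined name. For *Acadm*, CL and UUO overlapped in the VeptpKO libraries of plain name and not in those of joined name. The VeptpKO CL group holds 2 libraries of plain name.

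**Figure D3:**
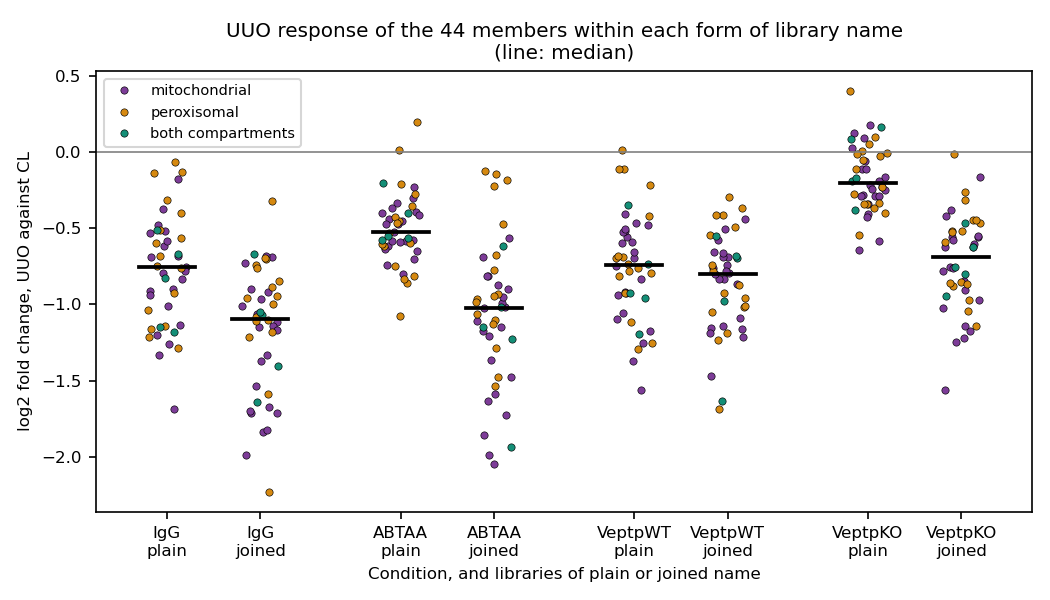
Log2 fold change of UUO against CL for each of the 44 members (points), within libraries of plain or joined name, for the 4 conditions of the ABTAA and *Veptp* arms; lines are medians. In VeptpKO mice the median is -0.20 for plain and -0.69 for joined names.

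Whether TIE2 activation changed these genes in the obstructed kidney was addressed by comparing treated with control mice within UUO. For ABTAA against IgG in UUO, 0 of 44 members were called by edgeR and 0 by DESeq2 (0% of all 9579 genes by edgeR), and 9 members had an unadjusted p under 0.05, as did 340 of all genes. The log2 fold changes ran from -0.07 to 0.61 with a median of 0.22, against 0.01 for all genes, and 43 of 44 members were above 0. *Crat* had the lowest p (0.46, SE 0.16, unadjusted p = 0.00627, adjusted p = 1.00 in edgeR), with 31.7, 48.4 and 58.1 CPM in IgG UUO and 51.6, 66.3 and 89.2 CPM in ABTAA UUO. Its libraries overlapped, and so did those of every member in this comparison. The same held for nearly all genes tested, of which 0.0104% lay apart in the lower and 0.0209% in the higher direction. *Acaa2* (0.61) and *Acaa1b* (0.58) had the largest fold changes. In CL kidneys 0 members were called (0% of all genes; 0 members at an unadjusted p under 0.05 in edgeR), with a median of 0.03. The difference of the UUO responses between ABTAA and IgG was called for 0 members (0% of all genes), with 4 at an unadjusted p under 0.05 and a median of 0.22, which was 0.25 in plain and 0.05 in joined names. Of the cell type markers 0 were called by edgeR in ABTAA against IgG UUO kidneys. Fold changes were above 0 for 12 of 12 proximal tubule markers (median 0.33) and 9 of 10 markers of the loop, distal tubule and collecting duct (median 0.45), and below 0 for 7 of 7 injured tubule (median -0.22), 5 of 5 fibroblast (median -0.31) and 5 of 5 macrophage markers (median -0.26). The mean log2(CPM + 1) of the proximal tubule markers in UUO was 8.44 under ABTAA and 8.08 under IgG in plain names. In joined names it was 7.93 and 7.86. The part of the markers in the members' values was not tested.

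For VeptpKO against VeptpWT in UUO, 0 of 44 members were called by edgeR and 0 by DESeq2 (0% of all 11916 genes by edgeR), and 6 had an unadjusted p under 0.05. The median was 0.26 (all genes 0.01), from -0.21 to 0.85, with 40 members above 0. Within the forms of the library name the median was 0.39 for plain and 0.06 for joined names. *Acaa1b* had the lowest p (0.60, SE 0.20, unadjusted p = 0.00517, adjusted p = 1.00 in edgeR), with 159.7, 217 and 317 CPM in VeptpWT UUO and 183, 320.0 and 546 CPM in VeptpKO UUO. *Nudt19* had the largest fold change, 0.85 (SE 0.29, unadjusted p = 0.00585). All 44 members overlapped between the genotypes, as did nearly all genes tested (0.0168% apart in the lower and 0% in the higher direction). In CL kidneys 0 members were called (0% of all genes; 0 at an unadjusted p under 0.05 in edgeR), with a median of -0.12. The difference of the UUO responses was called for 0 members (0% of all genes; 3 at an unadjusted p under 0.05), with a median of 0.33, which was 0.63 in plain and 0.08 in joined names. Of the markers 0 were called in VeptpKO against VeptpWT UUO kidneys by edgeR. Fold changes were below 0 for 5 of 5 fibroblast markers (median -0.73, 5 at an unadjusted p under 0.05), 5 of 5 endothelial (median -0.58) and 5 of 5 macrophage markers (median -0.30), and above 0 for 10 of 12 proximal tubule markers (median 0.30). The mean log2(CPM + 1) of the proximal tubule markers in UUO was 8.87 in VeptpKO and 8.27 in VeptpWT libraries of plain name. In joined names it was 8.19 and 8.17. The part of the markers in the members' values was not tested. A fold change that misses the threshold does not show that the genes were alike under both conditions.

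PDGFB is the growth factor by which endothelium and other cells recruit and stimulate pericytes and fibroblasts, and the *Pdgfb* arm compared obstructed kidneys labelled PdgfbKO with those labelled PdgfbWT. In UUO, 35 of the 44 members were higher in PdgfbKO than in PdgfbWT kidneys and 0 were lower, with a median log2 fold change of 0.76 and all 44 members above 0. In the same comparison 12% of all 10923 genes were higher, and the median of all genes was -0.02. Higher members numbered 18 of 22 in mitochondria (median 0.79), 13 of 17 in peroxisomes (median 0.67) and 4 of 5 in both compartments (median 0.70). The lowest PdgfbKO library lay above the highest PdgfbWT library for 36 members, as for 12.7% of all genes. In CL kidneys 0 members were called by edgeR and 0 by DESeq2 (0% of all genes), with 1 at an unadjusted p under 0.05, *Acad11* (-0.37), and a median of -0.05. The UUO response itself differed between the genotypes for 23 members, all less negative in PdgfbKO (6.66% of all genes called in that direction; median 0.82), of which 11 were mitochondrial, 9 peroxisomal and 3 of both compartments. With all 12 groups in 1 fit this count was 2 (0.0819% of all genes), *Bdh1* and *Phyh*, at a median of 0.82 over the members.

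Among the members, *Ehhadh* had the lowest adjusted p. In replicate order its 4 libraries held 581, 648, 698 and 567 CPM in PdgfbWT CL and 162, 178, 189 and 139.8 CPM in PdgfbWT UUO. In PdgfbKO kidneys they held 671, 693, 608 and 546 CPM in CL and 479.7, 439.8, 429 and 329.6 CPM in UUO. All 4 PdgfbWT UUO libraries stood below the other 12, and PdgfbKO exceeded PdgfbWT in UUO by 1.31 on the log2 scale (SE 0.14, adjusted p = 5.13e-07; difference of the responses 1.30, adjusted p = 1.52e-04, or 0.124 with all 12 groups in 1 edgeR fit). *Bdh1* held 122, 235, 201 and 208 CPM in PdgfbWT CL and 41.6, 54.0, 42.9 and 32.9 CPM in PdgfbWT UUO. It held 147, 194, 164 and 159.6 CPM in PdgfbKO CL and 105, 122, 134 and 136 CPM in PdgfbKO UUO. The PdgfbKO UUO libraries were higher than the PdgfbWT UUO libraries by 1.54 (SE 0.18, adjusted p = 1.86e-06; difference of the responses 1.76), the largest difference among the members called.

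For *Acaa1b*, PdgfbWT libraries held 624, 476, 528 and 528 CPM in CL and 124, 149, 168 and 133 CPM in UUO, and PdgfbKO libraries 658, 499.5, 682 and 477 and 415, 395, 457 and 268 CPM. The genotypes did not overlap in UUO (1.41, SE 0.16, adjusted p = 1.86e-06). *Acadm* held 1177, 1744, 1496 and 1524 CPM in PdgfbWT CL, 375, 413, 417 and 443 in PdgfbWT UUO, 1195, 1937, 1375 and 1349 in PdgfbKO CL and 1058, 924, 965 and 852 in PdgfbKO UUO. Each PdgfbKO UUO library was above each PdgfbWT UUO library (1.20, SE 0.15, adjusted p = 5.52e-06). *Cat*, which removes hydrogen peroxide, held 673, 772, 667 and 706 CPM in PdgfbWT CL, 238, 248, 245 and 266 in PdgfbWT UUO, 651, 686, 712 and 602 in PdgfbKO CL and 721, 573, 634 and 357 in PdgfbKO UUO. Its genotypes did not overlap in UUO (1.18, SE 0.15, adjusted p = 7.90e-06). *Hadh* held 149, 153, 165 and 157 CPM in PdgfbWT UUO and 316, 312, 319 and 283 in PdgfbKO UUO. The *Hadh* difference was 0.98 (SE 0.13, adjusted p = 1.12e-05), with ranges that did not overlap.

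**Figure D4:**
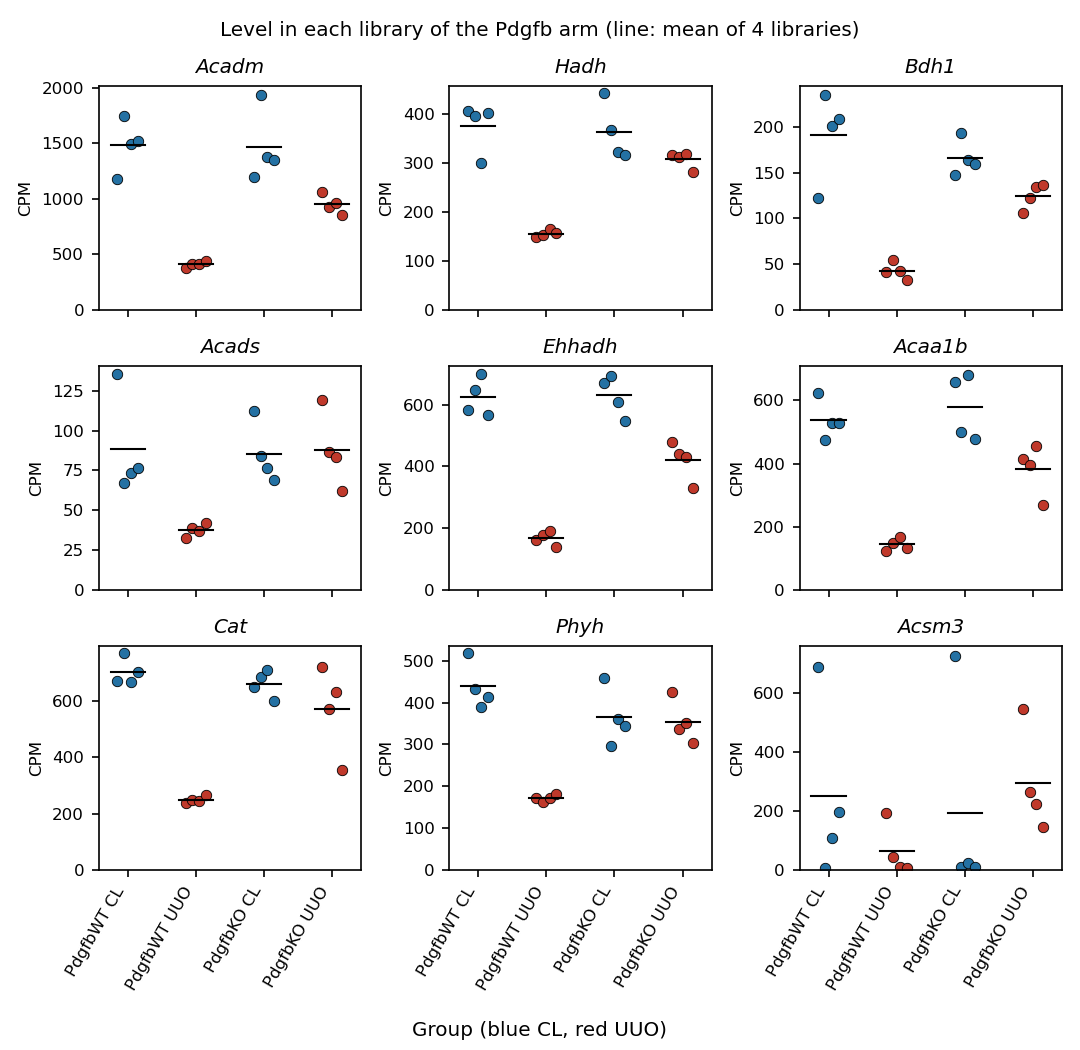
CPM of 9 members in the 16 libraries of the *Pdgfb* arm by group (points are libraries, lines the mean of 4). In CL the genotypes overlap, and *Acsm3* is scattered in every group; for *Acadm*, PdgfbWT UUO runs from 375 to 443 CPM and PdgfbKO UUO from 852 to 1058 CPM.

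Across roles, the higher members in PdgfbKO UUO kidneys included the activation enzyme *Acsm2* (1.50), the thiolases *Acat1* (1.32) and *Acaa2* (1.12), the dehydrogenase *Acads* (1.16), the flavoprotein subunits *Etfb* (0.99) and *Etfa* (0.88), and, in the peroxisome, *Nudt19* (1.17), *Phyh* (1.04) and *Acox3* (0.96). *Amacr* (1.41), *Acad11* (0.70), *Ech1* (0.78) and *Crat* (0.67) of both compartments were higher as well. The *Crat* call was lost at 0.39 without TMM scaling (adjusted p = 0.0991 in edgeR), 0.40 with the exact test without it, 0.43 in thinned counts, and 0.48 without PdgfbKO UUO replicate 3 (adjusted p = 0.107), and its ranges overlapped. With all 12 groups in 1 fit, the 14 members still called were *Acadm*, *Acadl*, *Hadh*, *Echs1*, *Acat1*, *Acsm2*, *Bdh1* and *Etfa* in mitochondria and *Acaa1b*, *Ehhadh*, *Phyh*, *Cat*, *Scp2* and *Nudt19* in peroxisomes, and the other 21 were not called, *Crat* (0.66), *Etfb* (0.99) and *Acads* (1.19) among them. The 9 members not called were *Cpt1a* (0.39), the rate-limiting step of mitochondrial entry, *Hadha* (0.38), *Acsl1* (0.39) and *Acsm3* (2.17) in mitochondria, *Decr2* (0.42), *Hsd17b4* (0.31), *Pex5* (0.07) and *Pex14* (0.25) in peroxisomes, and *Eci2* (0.46). *Acsl1* was lower with UUO in PdgfbKO (-1.15, adjusted p = 3.12e-04) as in PdgfbWT kidneys (-1.32, adjusted p = 2.28e-06). The other members lower with UUO in PdgfbKO mice were *Acadm* (-0.62), *Acaa2* (-0.89), *Cpt2* (-0.56), *Hadhb* (-0.59), *Etfb* (-0.52), *Acaa1b* (-0.60), *Ehhadh* (-0.59), *Abcd3* (-0.40) and *Ech1* (-0.49). None of these 10 was called with all 12 groups in 1 fit, and without PdgfbKO UUO replicate 4 the count of members lower was 3.

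Markers moved with the genotype too. In PdgfbKO against PdgfbWT UUO kidneys, 10 of 12 proximal tubule markers were higher (median 1.51), with a summed level of 3715 to 5156 CPM in PdgfbWT UUO and 9205 to 24715 CPM in PdgfbKO UUO libraries. Of the loop, distal tubule and collecting duct markers 8 of 10 were higher, while 5 of 5 fibroblast, 3 of 5 macrophage, 2 of 5 endothelial and 2 of 7 injured tubule markers were lower. The summed fibroblast level was 805 to 1084 CPM in PdgfbWT UUO and 265 to 687 CPM in PdgfbKO UUO. The adipocyte marker *Cfd* was at 3.68 (adjusted p = 0.0768), with a summed adipocyte level of 2.83 to 12.1 CPM in PdgfbWT UUO and 0 to 197 CPM in PdgfbKO UUO libraries, which overlap. The part of these markers in the members' difference was not tested. *Xist* and Y-linked genes were both present at 10 counts or more in 4 of 4 PdgfbKO UUO, 2 of 4 PdgfbWT UUO, 2 of 4 PdgfbWT CL and 0 of 4 PdgfbKO CL libraries. The mean level of the mitochondrial members was 7.22 to 7.25 on the log2(CPM + 1) scale in the 2 PdgfbWT UUO libraries with both, 7.10 to 7.20 in the 2 without, and 7.95 to 8.24 in the 4 PdgfbKO UUO libraries. With 1 fit over all 12 groups in place of the arm alone, 14 members were higher in PdgfbKO UUO (2.14% of all genes) at a median fold change of 0.74 over the members, and without TMM scaling 21 were (6.01%), at a median of 0.47.

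The mitochondrial member *Acsm3*, an acyl-CoA synthetase of medium chains (chr7:119760923-119787513, plus strand), varied most between libraries of a group and was called in no comparison. Its lowest, median and highest library were 7.41, 182 and 1565 CPM in IgG CL and 0, 204 and 486 CPM in VeptpWT UUO. In the 28 libraries with fewer than 10 counts of Y-linked genes it stood at 0 to 210.7 CPM with a median of 9.07. In the 23 libraries with at least 10 counts of Y-linked genes and fewer of *Xist* it stood at 254.6 to 1674 CPM with a median of 736.6, and in the 24 with both at 42.5 to 822.3 CPM. The level of *Acsm3* thus went with the presence of Y-linked genes. In the *Pdgfb* arm, PdgfbKO CL libraries held 724, 7.65, 20.8 and 10.2 CPM and PdgfbKO UUO libraries 544, 265, 224 and 144 CPM, and only replicate 1 of the PdgfbKO CL group had Y-linked genes above 10 counts. The UUO difference between the genotypes for *Acsm3* (2.17, SE 1.02, adjusted p = 0.144) stood beside these unequal shares of libraries with Y-linked genes, and their part in it was not tested.

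The remaining enzymes of the same pathways, listed from textbook knowledge, were counted in the same fits. Of 21 other mitochondrial oxidation and ketone genes tested in the ABTAA arm, 19 were lower and 0 higher with UUO in IgG mice (median -1.16), among them *Cpt1b* (-2.07), the muscle isoform of the carnitine shuttle, and *Oxct1* (-1.39), which activates ketone bodies. Of 27 other peroxisomal enzymes 23 were lower and 1 was higher, *Xdh* (0.79), xanthine dehydrogenase. Of 18 other peroxins and peroxisomal membrane proteins 9 were lower and 0 higher, the lowest being *Pxmp2* (-1.42). Of 10 genes of fatty acid uptake and activation 3 were lower, *Fabp3* (-1.55), *Slc27a1* (-0.76) and *Slc27a2* (-0.74), and 1 was higher, *Acsl4* (0.49).

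Regulators and targets were counted in the same way. Of 10 regulators tested, 7 were lower in IgG UUO kidneys, *Ppara* (-0.75), which encodes PPARα, *Ppargc1a* (-1.12), which encodes its coactivator PGC-1α, the related coactivator gene *Ppargc1b*, which fell by 1.00, *Esrra* (-1.23), *Hnf4a* (-0.73), *Sirt3* (-1.21) and *Tfam* (-0.45). *Rxra*, the partner of PPARα, had -0.01. Of 7 PPARα targets outside the members, the ω-hydroxylases *Cyp4a10* (-1.44) and *Cyp4a14* (-1.18) and the pantetheinase *Vnn1* (-0.87) were lower, the lipid droplet protein *Plin2* (0.96) was higher, and *Pdk4* (0.76) and *Angptl4* (0.60) were not called. In PdgfbWT mice the lower counts for the 6 lists were 19 of 21, 23 of 27, 10 of 18, 6 of 11, 6 of 10 and 3 of 7, in the order above. In PdgfbKO mice they were 5, 3, 1, 1, 1 and 1.

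In PdgfbKO against PdgfbWT UUO kidneys, 16 of 21 other mitochondrial genes were higher, such as *Eci3* (1.35), *Acsm1* (1.22) and *Oxct1* (1.13). Of 27 other peroxisomal enzymes 15 were higher, such as *Pecr* (1.43), an enoyl-CoA reductase, and *Xdh* (-0.60) was lower. Higher genes numbered 5 of 18 among the peroxins and membrane proteins and 3 of 11 in uptake and activation, *Cd36* (0.99), *Fabp3* (0.76) and *Slc27a2* (0.93). Of 10 regulators 3 were higher, *Esrra* (0.64), *Hnf4a* (0.59) and *Sirt3* (0.89), while *Ppara* had 0.49 (adjusted p = 0.216) and *Ppargc1a* 0.27 (adjusted p = 0.288). Of 7 PPARα targets 2 were higher, *Cyp4a10* (1.11) and *Vnn1* (0.80).

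Because the forms of the library name split every group of 2 arms, the members were also compared between the forms, with the 4 groups of the arm in the fit. In the ABTAA arm 12 members were higher and 5 lower in libraries of joined name (18.6% and 21.2% of all genes). In the *Veptp* arm 12 were higher and 12 lower (34% and 28.4% of all genes). Without TMM scaling, which moved the median of all genes to 0.54, the split was 30 higher and 5 lower. The shares of all genes called in that fit are not given, so this split does not show a shift particular to the members. The largest fold difference was that of *Etfb* (chr7:43444083-43457800, plus strand) in the *Veptp* arm, -1.88 (SE 0.11, adjusted p = 6.34e-17). *Etfb* ran from 1667 to 2591 CPM for plain and 376 to 569.8 CPM for joined names in VeptpWT CL, and from 726 to 1202 against 212 to 343 CPM in VeptpWT UUO. In VeptpKO UUO it ran from 1308 to 1610.0 against 279.7 to 509 CPM. The difference between the forms was larger than that between CL and UUO, and the forms did not overlap in any of these groups. *Etfb* exons overlap *Gm45233* on the same strand, and 44.8% of the 50-base stretches of *Etfb* are shared with other genes. *Acads* (chr5:115110299-115119346, minus strand) went the other way in the *Veptp* arm (1.37, SE 0.14, adjusted p = 1.37e-10), with 80.4 to 142 CPM for plain and 266 to 338 CPM for joined names in VeptpWT CL.

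**Figure D5:**
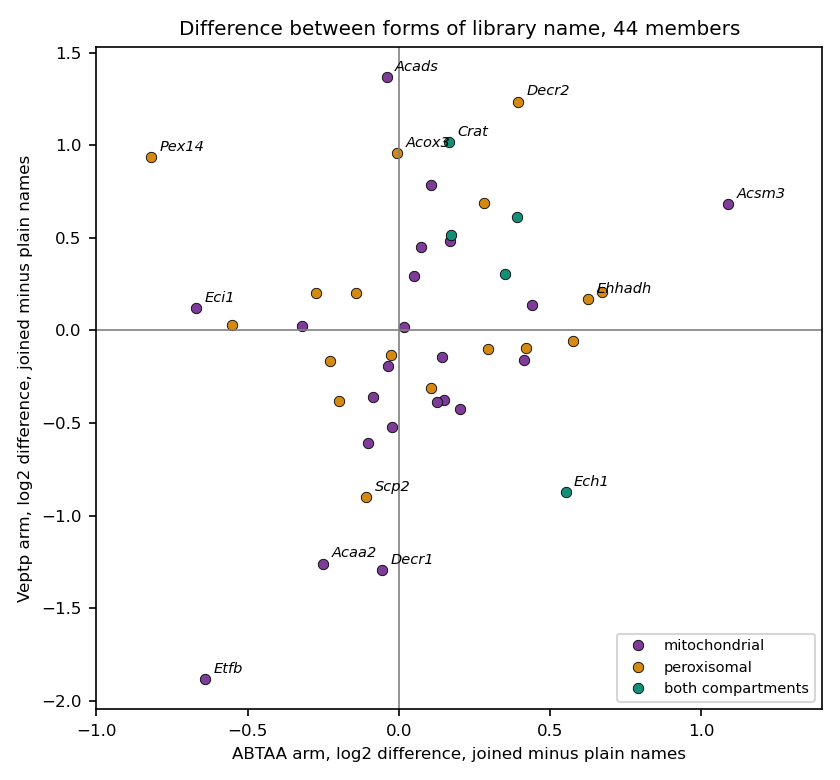
Log2 difference between libraries of joined and plain name in the ABTAA arm (horizontal axis) and the *Veptp* arm (vertical axis) for the 44 members, coloured by compartment. Points lie in all quadrants; *Etfb* is at -0.64 and -1.88, and *Pex14* at -0.82 and 0.94.

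The forms did not act alike in both arms. *Pex14* (chr4:148960535-149099876, minus strand) was lower in joined names in the ABTAA arm (-0.82, SE 0.19, adjusted p = 7.74e-04) and higher in the *Veptp* arm (0.94, adjusted p = 2.04e-06). In IgG UUO it ran from 22.6 to 33.2 CPM for plain against 2.33 to 15.6 CPM for joined names, and in VeptpWT CL from 27.4 to 29.0 against 57.9 to 71.5 CPM. An antisense gene, *Gm17029*, overlaps its exons. *Ech1* was higher in the ABTAA arm (0.55) and lower in the *Veptp* arm (-0.87). *Acsm3* had the largest fold difference in the ABTAA arm (1.09, SE 0.65, adjusted p = 0.183) without being called. *Hadh*, by contrast, had 0.02 in the ABTAA arm and 0.02 in the *Veptp* arm.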

How the data were processed

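RNA was measured in 75 libraries of whole mouse kidney. The authors deposited 1 table of raw counts per gene (unique molecules, not normalized). Per the submitters' processing notes, reads were handled with STAR 2.7.3a, UMI-tools 1.1.4 and featureCounts (Subread 1.4.6-p5) on mm10, and the 4 wells of a sample were merged; the annotation is not given in the sources used here. All columns were matched to a sample by name. Library totals ran from 172827 to 2341800 counts, and no pair of replicates was identical (214 pairs, chi-square per degree of freedom 1.41 to 36.4).

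Counts were tested with edgeR 4.0.16 in R 4.3.3 (quasi-likelihood, TMM, filterByExpr), in 1 fit of 4 groups per arm, on 9579, 11916 and 10923 genes in the ABTAA, *Veptp* and *Pdgfb* arms. Adjustment was by Benjamini-Hochberg over all genes tested, and a gene was called at an adjusted p under 0.05. CPM was computed from the counts of the tested genes and the TMM factors, and mean levels on log2(CPM + 1). The study's methods name the exact test of edgeR, which was run as an alternative beside DESeq2 1.42.0, other filters and scalings, covariates, thinned counts and libraries left out. The fits were tested on simulated data. Gene positions are those of GENCODE on GRCm38 and promoters those of RefSeq.

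The members, the gene lists and the markers were chosen with earlier results of these data known. All 44 members are named. Values in full are given for those with the lowest adjusted p for UUO in IgG mice (3 mitochondrial, 3 peroxisomal, 1 of both compartments), for up to 6 members with the lowest adjusted p among those called between treated and control mice, and for the 2 with the largest difference between forms of library name in each arm. Other genes named were picked from their lists after their values were seen. *Acadm* in the comparison by form of name, *Ehhadh* and *Bdh1* across conditions, and the 4 promoters shown were also picked after the values were seen.

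The labels do not say which libraries came from separate animals, so p-values measure the spread between these samples. The study describes 7 VeptpWT mice, and 8 UUO libraries carry that label. In the joined names, libraries of CL and UUO that share a replicate number deviated together from their group means (r = 0.201 to 0.465 over 3 pairs in the ABTAA arm and 0.101 to 0.557 over 8 pairs in the *Veptp* arm, mean r of other pairs -0.147 and -0.0450), so the numbers were taken to pair the samples in an alternative fit with the number as a replicate block. In the *Veptp* arm, 4 of these pairs carried opposite genotypes.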

Additional observations from a re-analysis of the deposited data

Results flagged for a closer look

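Of 180 sets of values in groups of 4 to 8 libraries, 9 (5%) had 1 library far from the others, where chance gives about 1 in 20. *Acads* stood at 168 CPM in IgG CL replicate 7 (nearest library 124.6 CPM), at 145 CPM in ABTAA CL replicate 6 (nearest 111 CPM) and at 136 CPM in PdgfbWT CL replicate 1 (nearest 76.8 CPM). *Etfb* stood at 1261 CPM in IgG UUO replicate 2 (nearest 796 CPM). *Hadh* was low in VeptpWT UUO replicate 4, at 147 CPM (nearest 225 CPM), and in PdgfbWT CL replicate 3, at 301 CPM (nearest 397 CPM). The mean level of the peroxisomal members was 8.08 on the log2(CPM + 1) scale in PdgfbWT CL replicate 1 (nearest 7.76), and that of the members of both compartments was 7.98 in PdgfbKO CL replicate 1 (nearest 7.46). *Acsm3* stood at 724 CPM in the same PdgfbKO CL library (nearest 20.8 CPM), which was the only one of its group with Y-linked genes at 10 counts or more.

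The response to UUO differed between PdgfbKO and PdgfbWT mice for 23 members in edgeR's test of the difference itself (adjusted p under 0.05). Among the members with full values, the response was less negative in PdgfbKO by 1.76 on the log2 scale for *Bdh1*, 1.31 for *Acaa1b*, 1.30 for *Phyh*, 1.30 for *Ehhadh*, 1.28 for *Cat*, 1.22 for *Acadm*, 1.22 for *Acads*, 1.03 for *Hadh* and 1.00 for *Etfb*. With all 12 groups in 1 fit, *Bdh1* and *Phyh* were called and the other 7 were not (adjusted p of edgeR from 0.0508 for *Cat* to 0.688 for *Etfb*), and *Acads* was also not called without TMM (0.93, adjusted p = 0.0596).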

How the results depend on the processing

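The median log2 fold change of the members with UUO was below 0 under every alternative run, and the counts for IgG (33 to 42) and PdgfbWT mice (32 to 42) stayed within 1.5 times the reported 41. The ABTAA count (35) was 13 in plain names alone. The VeptpWT count (34) was 21 with the exact test without TMM and 16 without the libraries numbered 3, 4, 7 and 8. The VeptpKO count (12) depended on the fit. It was 28 with the replicate block, 28 in joined names alone, 26 with the form of the name as a covariate, 21 with all 12 groups in 1 fit and 19 with *Xist* as a covariate. It was 6 without TMM, 3 with the exact test with or without TMM, 1 with the compared groups alone, 1 in thinned counts, 0 in plain names alone and 0 without the libraries numbered 3, 4, 7 and 8. The share of all genes called lower in VeptpKO mice moved as well. It was 3.47% as reported, 10.3% with the replicate block, 10.6% in joined names alone and 0.127% without the numbered libraries. Where no share is given here or above, a count does not show a change particular to the members. The PdgfbKO count (10) was 6 with the exact test without TMM, 6 with the compared groups alone, 5 in thinned counts and 0 with all 12 groups in 1 fit. For PdgfbKO against PdgfbWT in UUO the count (35) was 21 without TMM and 14 with all 12 groups in 1 fit, and for the difference of the responses (23) it was 15 and 2. With all 12 groups in 1 fit the median fold changes were 0.74 for PdgfbKO against PdgfbWT in UUO and 0.82 for the difference of the responses, against 0.76 and 0.82 as reported. The cause of these shifts was not tested. Leaving out 1 library at a time gave 40 to 42 members in IgG, 32 to 37 in ABTAA, 28 to 36 in VeptpWT, 5 to 15 in VeptpKO, 40 to 42 in PdgfbWT and 3 to 13 in PdgfbKO mice, 28 to 37 for PdgfbKO against PdgfbWT in UUO and 21 to 30 for the difference of the responses. Counts for ABTAA against IgG and VeptpKO against VeptpWT were 0 under every alternative, as was PdgfbKO against PdgfbWT in CL. Counts by form of name ran from 13 to 22 in the ABTAA and 22 to 35 in the *Veptp* arm. Without TMM the median of all genes shifted by up to 0.54, in the form of name of the *Veptp* arm, where *Acaa1b* turned from -0.38 to 0.0818. The replicate block moved no count but that of VeptpKO by over 1.5 times. A tally was made of members with full accounts called with UUO in IgG or PdgfbWT mice, between PdgfbKO and PdgfbWT, or between forms. Over the alternatives, 535 of these values kept their side of the threshold, 19 lost it and 1 reversed. The UUO calls in ABTAA, VeptpWT, VeptpKO and PdgfbKO mice are outside this tally, and several of them were lost, as given above. The fit without the libraries numbered 3, 4, 7 and 8, the fit without those holding both *Xist* and Y-linked genes, the comparison of responses between forms and the block together with the form were added after the data were seen. The block and the form could not be fitted together in the *Veptp* arm, and leaving out the libraries with both *Xist* and Y-linked genes was not run in the *Pdgfb* arm, since no PdgfbKO UUO library would remain.

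Thinning every library to the shallowest of its arm gave 33 members in IgG, 26 in ABTAA, 23 in VeptpWT, 1 in VeptpKO, 36 in PdgfbWT and 5 in PdgfbKO mice. The share of all genes called in the thinned fits is not given. These counts therefore do not tell a change of the members from a loss of calls over all genes. Counts of members share cells, libraries and controls, and are not independent.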
